A study of Mus musculus with 6 samples.

Results

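The genes described here make, cut and bind hyaluronan in epididymal white fat of mice with and without CD44. There are 10 of them, taken by symbol from the 22322 genes of the deposited table: the synthases Has1, Has2 and Has3, the hyaluronidases Hyal1, Hyal2 and Cemip, the receptors Stab1, Stab2 and Hmmr, and the secreted binding protein Tnfaip6. RNA sequencing covered 6 libraries of epididymal adipose tissue, 3 from wild type mice and 3 from mice labelled CD44-KO, all fed a high fat diet for 17 weeks. Age, and how the CD44 allele was made, are not given in the labels. Nothing in the labels says that the numbered samples are separate mice, so p-values measure the spread between these samples only.

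Hyaluronan is a long sugar polymer of the extracellular matrix, built at the plasma membrane by the Has enzymes from UDP-glucuronic acid and UDP-N-acetylglucosamine. Hyaluronidases cut it, scavenger receptors such as the stabilins take up its fragments, and lysosomal enzymes finish its breakdown. CD44 is its main receptor at the cell surface, and the polymer accumulates in inflamed tissue, obese fat included. The comparison of the genotypes asks what CD44 does in white fat.

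Total expected counts ran from 15543317 to 18765009 per library. Cd44 stood at 182 to 570 CPM (counts scaled for library size) in wild type libraries against 1.66 to 3 in those labelled CD44-KO, and edgeR called it lower (log2 fold change -7.27, SE 0.58, adjusted p 0.0126). The 10 adipocyte markers summed to 17608 to 32517 CPM in wild type libraries, against 32605 to 50643 in CD44 KO. Fabp4 and Cd36 were the most abundant. Of the 10, 8 had positive and 2, Cd36 among them, negative log2 fold changes (median 0.94). Cfd was called higher (log2 fold change 4.76, SE 0.85, edgeR adjusted p 0.0473). DESeq2 called 4 higher and 2 lower, against 10.6% of all tested genes in each direction. CD44 KO replicate 1 stood inside the wild type range in the summed macrophage and mitotic genes, with 4487 and 237 CPM, and the other CD44 KO libraries stood below it. CD44 KO replicate 2 held epididymis transcripts: 10 markers summed to 11353 CPM there and to 1.02 to 13.7 in the other libraries, and the most abundant, Crisp1 and Adam7, stood at 9623 and 1207 CPM there.

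Promoter sequences of the receptors are shown first, because the values of Hmmr are set beside those of mitotic genes below, and the stabilins serve as a comparison. Each runs 5′ to 3′ on the gene's strand, from 250 bases before to 50 after the start site (RefSeq, GRCm38.p6). Capitals mark CCAAT or its reverse complement ATTGG, and TTTGAA or its reverse complement. CCAAT boxes and the TTTGAA element (the cell cycle homology region) are known from promoters of genes expressed in mitosis. Hmmr lies at chr11:40733388-40733687 on the minus strand, Stab1 at chr14:31168592-31168891 on the minus strand and Stab2 at chr10:87007893-87008192 on the minus strand.
Hmmr: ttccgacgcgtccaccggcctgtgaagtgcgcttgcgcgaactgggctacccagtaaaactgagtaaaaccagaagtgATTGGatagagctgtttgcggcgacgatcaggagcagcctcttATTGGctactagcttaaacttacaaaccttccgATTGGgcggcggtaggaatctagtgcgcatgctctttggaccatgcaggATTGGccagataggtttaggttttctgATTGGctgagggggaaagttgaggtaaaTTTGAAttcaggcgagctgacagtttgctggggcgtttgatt
Stab1: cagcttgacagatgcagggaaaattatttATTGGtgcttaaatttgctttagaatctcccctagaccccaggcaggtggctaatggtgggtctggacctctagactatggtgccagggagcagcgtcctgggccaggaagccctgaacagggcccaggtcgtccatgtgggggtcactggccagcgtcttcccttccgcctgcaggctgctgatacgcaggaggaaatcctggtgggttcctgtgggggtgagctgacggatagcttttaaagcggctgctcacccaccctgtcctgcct
Stab2: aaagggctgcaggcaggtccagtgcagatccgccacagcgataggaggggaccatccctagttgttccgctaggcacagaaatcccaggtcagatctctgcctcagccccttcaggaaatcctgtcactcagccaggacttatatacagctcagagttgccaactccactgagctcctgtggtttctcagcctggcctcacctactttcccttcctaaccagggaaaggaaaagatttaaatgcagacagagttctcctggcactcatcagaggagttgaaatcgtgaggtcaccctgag

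The Hmmr window held 5 CCAAT matches and 1 TTTGAA match, 8 bases after the start site. Stab1 held 1 CCAAT match and Stab2 neither motif. Of the 8 hyaluronan genes with a promoter there, 5 held CCAAT, and Has1 held both motifs as Hmmr did. Searched on both strands, CCAAT was in 37.4% of the 32851 promoters of the table and TTTGAA in 17.9%, and 1.06% held 4 or more CCAAT matches. Of the 15 mitotic genes listed for this comparison 12 had a promoter in the table: all 12 held CCAAT and 9 held TTTGAA. Only 8.33% of these 12 held 4 or more CCAAT matches. A match describes these letters and is not a measured binding site. Has2 and Has3 had no promoter there.

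Of the 10 genes 8 had enough counts to be tested between the genotypes, and none of these 8 passed the test, while 3 of them were lower in every CD44 KO library than in any wild type library. Those 3 were Stab2, Stab1 and Hyal1, and Stab2 had the largest difference of them, at 4.62-fold lower. Among all tested genes, the groups did not overlap in 18.1% in that direction and in 37.8% in either direction. Of the 8 tested, 6 had negative and 2 positive log2 fold changes, with a median of -0.70 (0.03 over all tested genes, 47.8% of which were negative). Has1 and Cemip were below the filter on low counts. These are bulk samples, in which fewer cells of a type and less RNA per cell cannot be told apart.

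**Figure D1:**
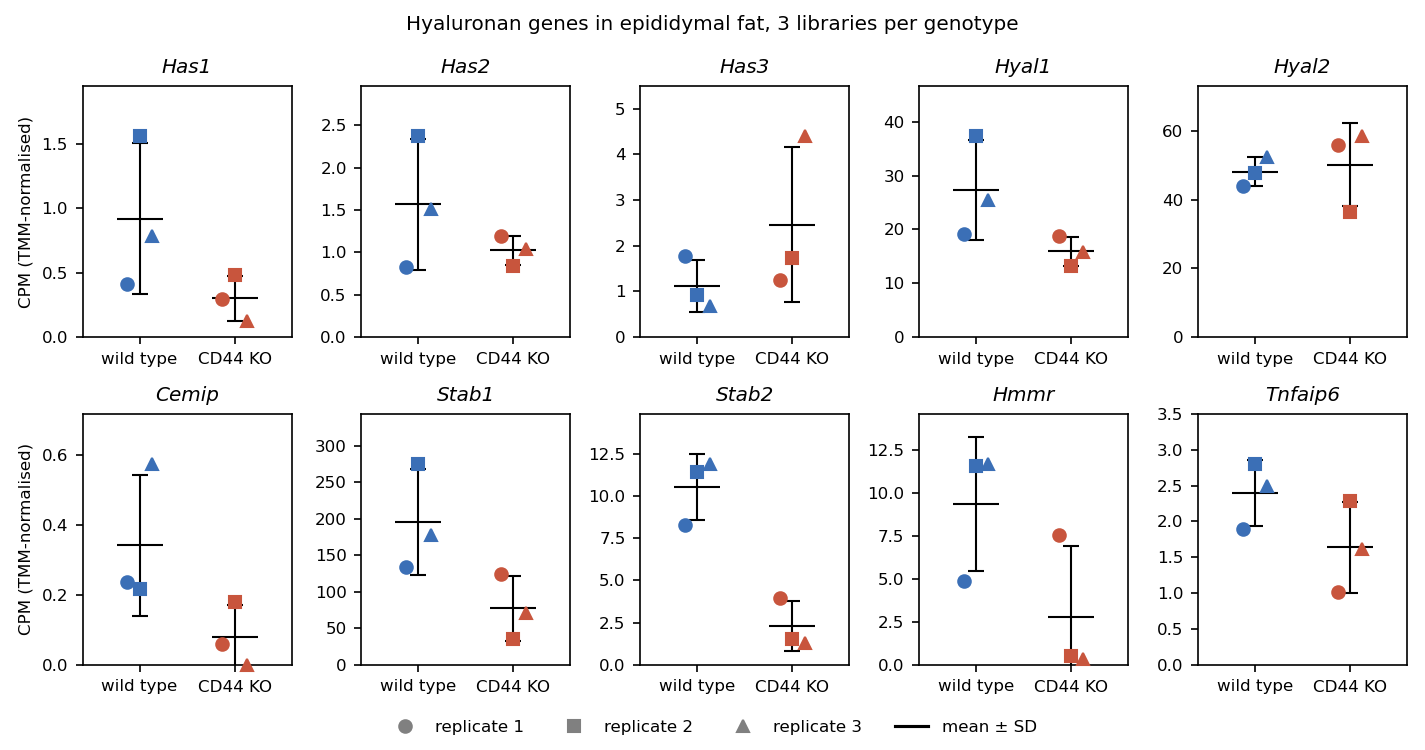
TMM-normalised CPM (y axis from 0) of the 10 hyaluronan genes in the 3 wild type (blue) and 3 CD44 KO (red) libraries; symbols mark the replicate and bars the mean ± SD. Stab2 ran from 8.31 to 11.9 CPM in wild type libraries, against 1.29 to 3.98 in CD44 KO, while Hmmr in CD44 KO replicate 1, at 7.54, lay inside the wild type range.

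Calls use the edgeR quasi-likelihood test adjusted by Benjamini-Hochberg across the 13829 genes tested, at an adjusted p under 0.05 ("adjusted p" below). It called 0 of the 8 tested hyaluronan genes lower, where 0.882% of all tested genes were called lower, and 0 higher, where 1.74% were (2.62% in either direction). With the unadjusted p held to 0.05, the 3 named above were lower and 0 higher, where 14.7% of all tested genes were lower and 16.3% higher. The groups did not overlap in these 3, all lower. The share of all tested genes without overlap was 18.1% in that direction and 37.8% in either direction. DESeq2 called 2 lower, Stab1 and Stab2, against a background of 10.6%, and 0 higher. With CD44 KO replicate 1 left out, edgeR called 3 lower, Stab1, Stab2 and Hmmr, against 9.65%, and 0 higher, against 7.13%.

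Expression levels spanned a wide range when compared per length, as the authors' FPKM. Hyal2, a hyaluronidase anchored at the cell surface, had the highest mean over the 6 libraries, at 30.9 FPKM. Stab1 followed at 18.4 and Hyal1 at 7.44. The range over the libraries of Stab1 overlapped those of Hyal2 and Hyal1: it stood at 26.8 ± 10.5 FPKM (SD, n = 3) in wild type and 10.1 ± 6.16 in CD44 KO, and in wild type replicate 2 Stab1 exceeded Hyal2, at 38.6 against 31.2 FPKM. Hmmr, Stab2 and Tnfaip6 stood at 1.59, 1.46 and 1.17 FPKM, and the ranges of these 3 over the libraries overlapped. The synthases were near the bottom, with Has3 at 0.33, Has2 at 0.305 and Has1 at 0.29 FPKM, ranges that also overlapped. Only 3.74% of the tested genes had a lower mean FPKM than Has3. Cemip was lowest at 0.0283 FPKM.

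The 3 synthase genes were read from few counts. Has1 (ENSMUSG00000003665, chromosome 17, 17843323 to 17855205, positions of GENCODE M21 on GRCm38 matched by identifier) had 7, 29 and 15 counts in wild type replicates 1 to 3, against 5, 8 and 2 in CD44 KO replicates 1 to 3. Wild type replicates 2 and 3 were the highest, and wild type replicate 1 fell inside the CD44 KO range. Has1 was not tested with the filter on low counts; without that filter its log2 fold change was -1.59 (edgeR adjusted p 0.269).

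Has2 (ENSMUSG00000022367, chromosome 15, 56665627 to 56694539) encodes the synthase required for embryonic development. It stood at 0.825, 2.37 and 1.51 CPM in wild type libraries, against 1.19, 0.841 and 1.04 in CD44 KO. The groups overlapped, with wild type replicate 1 the lowest of all 6 libraries. Its log2 fold change was -0.62 with a 95% interval from -2.04 to 0.81 (adjusted p 0.429), an interval that holds both a fall and a rise. Has2 shares 182 of its 4237 exon bases, 4.3%, with the antisense gene Has2os in that annotation; Has2os was not analysed here.

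Has3 (ENSMUSG00000031910, chromosome 8, 106870242 to 106884566) was the synthase with a positive log2 fold change. It stood at 1.77, 0.916 and 0.678 CPM in wild type libraries, against 1.25, 1.74 and 4.4 in CD44 KO. CD44 KO replicate 3 was the highest library, and the other 5 libraries overlapped. The log2 fold change was 1.13 (SE 0.65, 95% interval -0.66 to 2.92, adjusted p 0.264) and was 0.41 without CD44 KO replicate 3. Has3 shares 352 exon bases, 5.52% of its own, with genes on the opposite strand, and the strandedness of the libraries is not given in the sources used here. Derpc, a gene listed for that strand, had 373, 242 and 0 counts in wild type libraries, against 48.6, 95 and 692 in CD44 KO, with its highest value in the same library as Has3; its part in the Has3 values was not tested.

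Seen as a share of the summed FPKM of the 3 synthases, Has3 made up 44.4%, 13.2% and 18.7% in wild type replicates 1 to 3, against 33.3%, 41.2% and 72.7% in CD44 KO replicates 1 to 3. Has1 made up 27.8% to 49.7% in wild type and 5.45% to 30.9% in CD44 KO. Both ranges overlapped. The summed level itself was 1.05 ± 0.412 FPKM (SD, n = 3) in wild type libraries, against 0.803 ± 0.258 in CD44 KO.

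**Figure D2:**
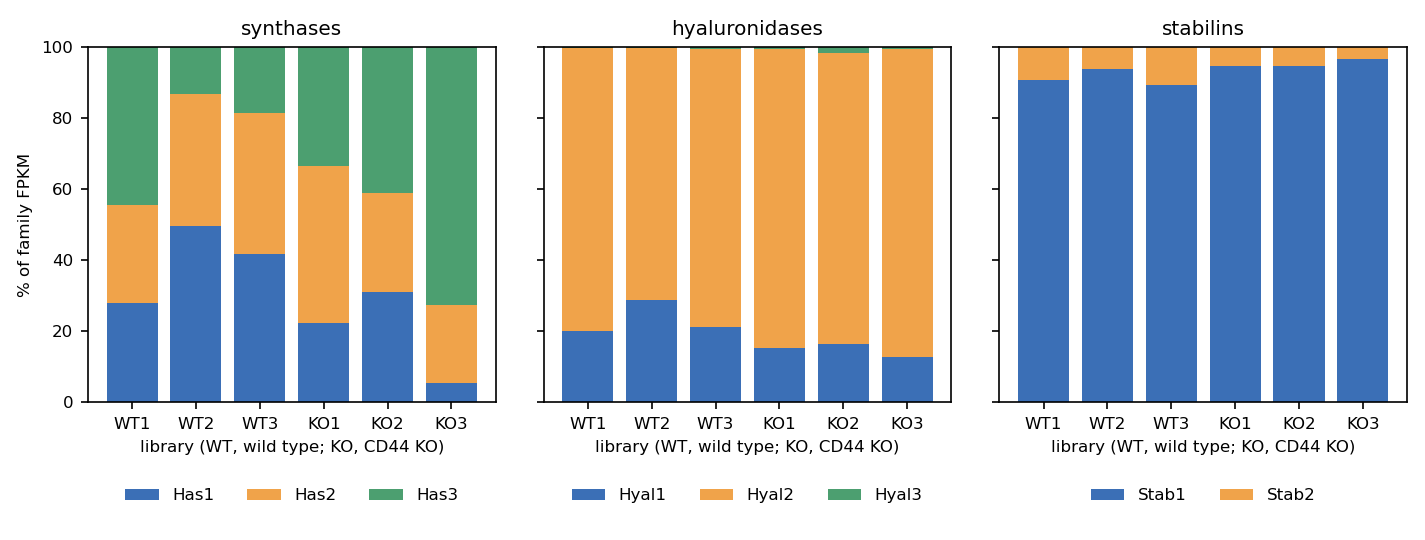
Share of each gene in the summed FPKM of its family (y axis, %) in each library: Has1 to Has3, Hyal1 to Hyal3, and Stab1 with Stab2. Hyal2 held 70.7% to 79.6% in wild type and 81.7% to 86.6% in CD44 KO, and Has3 reached 72.7% in CD44 KO replicate 3.

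Among the enzymes that cut hyaluronan, Hyal1 was lower in every CD44 KO library without passing the test, and the groups overlapped in Hyal2. Hyal1 (ENSMUSG00000010051, chromosome 9, 107576927 to 107581710), the lysosomal hyaluronidase, stood at 19.1, 37.3 and 25.5 CPM in wild type libraries, against 18.7, 13.2 and 15.9 in CD44 KO. The groups did not overlap, but wild type replicate 1 and CD44 KO replicate 1 were close to each other. The log2 fold change was -0.78 (SE 0.28, 95% interval -1.55 to -0.00341), with an unadjusted edgeR p of 0.029 that did not pass adjustment (adjusted p 0.126). Hyal1 shares 1920 of its 3777 exon bases, 50.8%, with Naa80 on the same strand, so the division of reads between the genes is uncertain; Naa80 had 443 to 566 counts in wild type libraries, against 407 to 544 in CD44 KO.

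Hyal2 (ENSMUSG00000010047, chromosome 9, 107567945 to 107572779) stood at 44, 47.9 and 52.5 CPM in wild type libraries, against 55.9, 36.4 and 58.5 in CD44 KO. Its log2 fold change was 0.06 (95% interval -0.52 to 0.64, adjusted p 0.858), and it changed sign, to -0.02 and -0.07, when the fit dropped CD44 KO replicate 1 and CD44 KO replicate 3, each left out in turn. Hyal3, their neighbour on chromosome 9, had 4 to 16 counts per library. Hyal2 made up 76.1% ± 4.76 (SD, n = 3) of the summed FPKM of Hyal1, Hyal2 and Hyal3 in wild type, against 84.1% ± 2.47 in CD44 KO, and the groups did not overlap; the shares were not tested.

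Cemip (ENSMUSG00000052353, chromosome 7, 83932857 to 84086502), a hyaluronan-binding protein that fibroblasts need to degrade the polymer, was barely detected. It had 4, 4 and 11 counts in wild type libraries, against 1, 3 and 0 in CD44 KO. The 0 of CD44 KO replicate 3 allows up to 0.193 CPM (3 counts of that library, counting error only). These counts are too few for a comparison. Its relative Cemip2, which encodes a transmembrane hyaluronidase, averaged 14 ± 2.48 CPM (SD, n = 3) over the wild type libraries, against 14.1 ± 3.87 in CD44 KO (log2 fold change 0.01, 95% interval -0.70 to 0.71, adjusted p 0.986).

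Of the 10 genes the scavenger receptor Stab2 had the lowest p. Stab2 (ENSMUSG00000035459, chromosome 10, 86841198 to 87008025), the main hyaluronan clearance receptor of sinusoidal endothelium, stood at 8.31, 11.4 and 11.9 CPM in wild type libraries, against 3.98, 1.56 and 1.29 in CD44 KO. Every CD44 KO library was below every wild type library, with CD44 KO replicate 1 the nearest to wild type. The log2 fold change was -2.21 (SE 0.48, 95% interval -3.54 to -0.88), with an unadjusted edgeR p of 0.00294 and an adjusted p of 0.0615, just short of the threshold. Without CD44 KO replicate 1 it was called at -2.88 (edgeR adjusted p 0.0203), and with each of the 6 libraries dropped in turn the log2 fold change ran from -2.88 to -1.93. The authors' deposited table gives Stab2 a log2 fold change of -2.24 with an FDR of 0.000631.

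Stab1 (ENSMUSG00000042286, chromosome 14, 31139013 to 31168641), a related scavenger receptor of macrophages and sinusoidal endothelium, was more abundant per length, at a mean of 18.4 FPKM. It stood at 134, 275 and 178 CPM in wild type libraries, against 125, 36 and 70.8 in CD44 KO. The groups did not overlap, but CD44 KO replicate 1 came close to wild type replicate 1. The log2 fold change was -1.34 (SE 0.49, 95% interval -2.71 to 0.02, adjusted p 0.131). Stab1 was called without CD44 KO replicate 1, at -1.88 (edgeR adjusted p 0.0424), and the authors' deposited table gives it -1.40 with an FDR of 0.0424. Stab2 made up 6.22% to 10.6% of the summed FPKM of both stabilins in wild type and 3.51% to 5.4% in CD44 KO. These ranges did not overlap, but the shares taken from CPM did, at 3.99% to 6.28% and 1.8% to 4.16%. The shares were not tested.

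Markers of the cells that carry stabilins differed in the sign of their fold changes. For the macrophage markers all 12 log2 fold changes were negative (median -2.07), and edgeR called 0. By unadjusted p 4 were lower, and DESeq2 called 4 lower, against 14.7% and 10.6% of all tested genes. When CD44 KO replicate 1 was dropped, edgeR called 10 of the 12 lower (median -3.43), against 9.65% of all tested genes. Their summed CPM was 4403 to 9250 in wild type; CD44 KO replicates 1 to 3 had 4487, 305 and 963. The libraries had the same order in Stab1 as in the summed markers, except that wild type replicate 1 and CD44 KO replicate 1 changed places. Lyz2 and Cd68, the most abundant of the markers, spanned 98.1 to 3996 CPM and 9.73 to 1141 CPM over the libraries. The part of macrophages in the Stab1 values was not tested.

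The 10 endothelial markers, in contrast to Stab2, had positive log2 fold changes (median 0.33), with 0 called by edgeR, 0 by unadjusted p and 0 by DESeq2. They summed to 770 to 1568 CPM in wild type libraries, against 958 to 1819 in CD44 KO, Cdh5 and Pecam1 being the most abundant. The 6 lymphatic endothelial markers had a median of -0.04, 3 in each direction, and summed to 59.7 to 72.4 and 35.9 to 65.6 CPM. Their most abundant genes, Pdpn and Ccl21a, spanned 6.61 to 37 and 6.09 to 28.9 CPM. The difference between Stab2 and these markers was not tested.

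Hmmr (ENSMUSG00000020330, chromosome 11, 40701395 to 40733422) encodes RHAMM, a hyaluronan-binding protein that also sits on the mitotic spindle. It stood at 4.89, 11.6 and 11.7 CPM in wild type libraries, against 7.54, 0.541 and 0.324 in CD44 KO. CD44 KO replicate 1 lay inside the wild type range, while the other CD44 KO libraries held 9 and 5 counts. With all libraries the log2 fold change was -1.74 (SE 1.14, 95% interval -4.91 to 1.42, adjusted p 0.323). Without CD44 KO replicate 1 it was -4.42 and called (edgeR adjusted p 0.0209), so both the size and the call rested on that library.

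The 15 mitotic genes divided the libraries as Hmmr did. All 15 had negative log2 fold changes (median -1.35), with 0 called by edgeR, 0 by unadjusted p and 0 by DESeq2. Without CD44 KO replicate 1 edgeR called all 15 lower, against 9.65% of all tested genes. Their summed CPM was 175, 362 and 309 in wild type libraries, against 237, 28.8 and 34.2 in CD44 KO, with CD44 KO replicate 1 inside the wild type range; their part in the Hmmr values was not tested. Top2a and Mki67, the most abundant of them, stood at 2.76 to 56.9 and 4.92 to 86.4 CPM over the libraries. The 12 of them with a promoter in the table hold CCAAT, as do the Hmmr window printed above and 5 of the 8 hyaluronan genes with a promoter, Hmmr included.

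**Figure D3:**
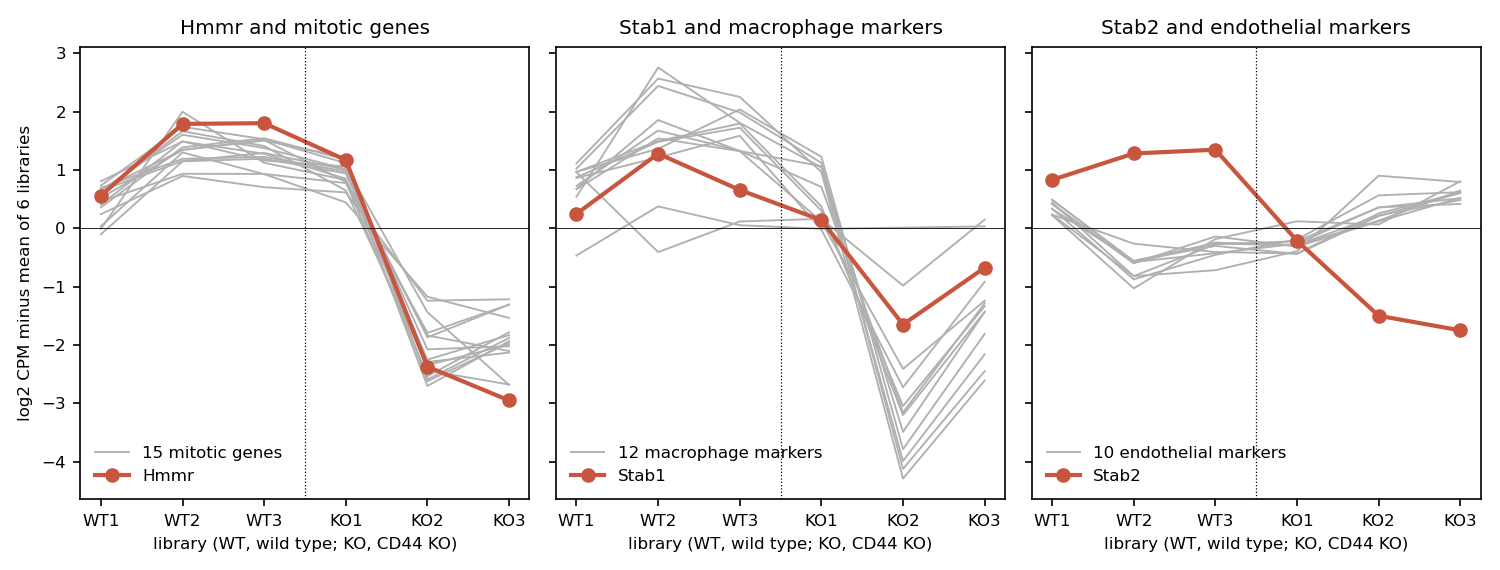
Log2 CPM minus the gene's mean over the 6 libraries (y axis) for Hmmr with 15 mitotic genes, Stab1 with 12 macrophage markers and Stab2 with 10 endothelial markers; lines only link the values of a gene, and WT and KO mark wild type and CD44 KO. Hmmr lies within or beside the mitotic genes in each library, while Stab2 is high in wild type, where the summed endothelial markers were 770 to 1568 CPM, and low in CD44 KO, where they were 958 to 1819.

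Tnfaip6 (ENSMUSG00000053475, chromosome 2, 52038009 to 52056686) encodes TSG-6, a secreted protein induced in inflammation that moves heavy chains of inter-alpha-trypsin inhibitor onto hyaluronan. It stood at 1.89, 2.8 and 2.5 CPM in wild type libraries, against 1.01, 2.28 and 1.62 in CD44 KO, with overlapping groups. Its log2 fold change was -0.55 (95% interval -1.75 to 0.65, adjusted p 0.405), an interval that allows a fall as well as a small rise.

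Several genes of inter-alpha-trypsin inhibitor and its heavy chain family were highest in CD44 KO replicate 3. Itih4, of the inter-alpha-trypsin inhibitor heavy chain family, had 15, 5 and 10 counts in wild type libraries, against 55, 58 and 360 in CD44 KO (adjusted p 0.0739; log2 fold change 4.15, SE 1.00). With all libraries Itih4 was not called by edgeR but was by DESeq2 (adjusted p 0.000127). By edgeR it was called without CD44 KO replicate 1 (4.57, adjusted p 0.0303) and stood at 2.58 without CD44 KO replicate 3. Itih4 passed the filter on low counts only with the CD44 KO libraries, where it was high, so these calls say little. Itih2, Itih3 and Ambp, the gene of the light chain bikunin, were also highest in CD44 KO replicate 3, at 81, 202 and 147 counts, and Ambp had 0 counts in 4 of the other libraries. Ambp was below the filter and is given by its counts only. Has3 was highest in the same library. Itih5 was abundant and even, at 449 ± 24 CPM (SD, n = 3) in wild type libraries, against 503 ± 47 in CD44 KO. Ptx3, which encodes a pentraxin that binds TSG-6 and the heavy chains, stood at 2.54 ± 0.133 and 1.21 ± 0.648 CPM, groups that did not overlap (log2 fold change -1.07, adjusted p 0.21).

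The other genes of the pathway, apart from Cd44, gave 1 call. Of the 35 such genes listed, 25 had enough counts to be tested, 14 with negative and 11 with positive log2 fold changes (median -0.25). edgeR called 1 lower and 0 higher, against 0.882% and 1.74% of all tested genes. By unadjusted p 8 were lower and 2 higher, against 14.7% and 16.3%. DESeq2 called 8 lower and 2 higher, against 10.6% in each direction. Without CD44 KO replicate 1 edgeR called 7 of the 25 lower and 1 higher, against 9.65% and 7.13%. The groups did not overlap in 9 that were lower and 2 that were higher, where 18.1% and 19.7% of all tested genes did so. The called gene was Ncan, for neurocan, a hyaluronan-binding proteoglycan known from brain, which fell from 14.4 ± 4.11 to 1.49 ± 0.824 CPM (SD, n = 3). Ncan had 322, 206 and 250 counts in wild type libraries, against 37, 28 and 9 in CD44 KO (edgeR adjusted p 0.039; log2 fold change -3.26, SE 0.51). Its edgeR adjusted p was 0.0615, 0.139 and 0.232 without wild type replicates 1, 2 and 3, and 0.0699 and 0.0844 without CD44 KO replicates 2 and 3, so 5 of the 6 libraries were each needed for the call.

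Of the 7 enzymes that supply the precursor sugars 2 had negative and 5 positive log2 fold changes, and none was called by edgeR. By unadjusted p 1 was lower and 1 higher, against 14.7% and 16.3% of all tested genes. DESeq2 called the same numbers, against 10.6% in each direction. Gfpt2, an isoform of the rate-limiting enzyme of the hexosamine pathway, stood at 25.6 ± 9.2 CPM (SD, n = 3) in the controls against 11.7 ± 1.6 in the knockouts (log2 fold change -1.13, adjusted p 0.0753). Uap1, which makes UDP-N-acetylglucosamine, stood at 64.6 ± 10.3 and 114 ± 9.8 CPM (log2 fold change 0.82, SE 0.17, adjusted p 0.056). The groups did not overlap in either gene. Gfpt1, the other isoform, had a log2 fold change of 0.38 (adjusted p 0.185), and Ugdh, which makes UDP-glucuronic acid, of -0.20 (adjusted p 0.521).

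Genes for lysosomal exoglycosidases that remove the end sugars of hyaluronan fragments gave no call by edgeR with all libraries. The groups did not overlap, lower in CD44 KO, in Gusb and Hexa, and DESeq2 called both (adjusted p 0.0106 and 0.0149). Gusb, for beta-glucuronidase, averaged 523 ± 241 CPM (SD, n = 3) over the wild type libraries, against 118 ± 111 in CD44 KO (log2 fold change -2.14, adjusted p 0.117), and Hexa, for a hexosaminidase subunit, at 573 ± 153 and 180 ± 138 CPM (-1.67, adjusted p 0.114). With CD44 KO replicate 1 left out, edgeR called both, at -3.27 and -2.51 (adjusted p 0.0227 and 0.0209). Like Stab1 and Hmmr, both were highest among the CD44 KO libraries in replicate 1, with 4152 counts of Gusb against 920 and 823.

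All 4 hyaluronan receptors other than Cd44 outside the 10 genes had negative log2 fold changes, and none was called by edgeR. By unadjusted p 2 were lower, and DESeq2 called 2 lower, against 14.7% and 10.6% of all tested genes. Lyve1, a receptor of lymphatic endothelium and some tissue macrophages, stood at 19.9 ± 1.81 CPM in wild type libraries, against 8.23 ± 4.29 in CD44 KO (adjusted p 0.0911; log2 fold change -1.27, SE 0.36). With CD44 KO replicate 1 left out, it was called at -1.79 (edgeR adjusted p 0.0203). Layn, for layilin, had -1.88 (adjusted p 0.149), and Tlr2 and Tlr4, innate receptors reported to sense hyaluronan fragments, -1.21 and -0.90 (adjusted p 0.22 and 0.193). Dropping the same library, edgeR called Tlr2 (-2.05, adjusted p 0.0401) and not Layn or Tlr4 (adjusted p 0.0857 and 0.0552). In the matrix, Vcan, for the hyaluronan-binding proteoglycan versican, stood at 38 ± 13.1 and 12 ± 7.62 CPM (-1.66, adjusted p 0.109). Vcan was called by DESeq2 (adjusted p 0.0173) and by edgeR without CD44 KO replicate 1 (-2.24, adjusted p 0.0377).

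**Figure D4:**
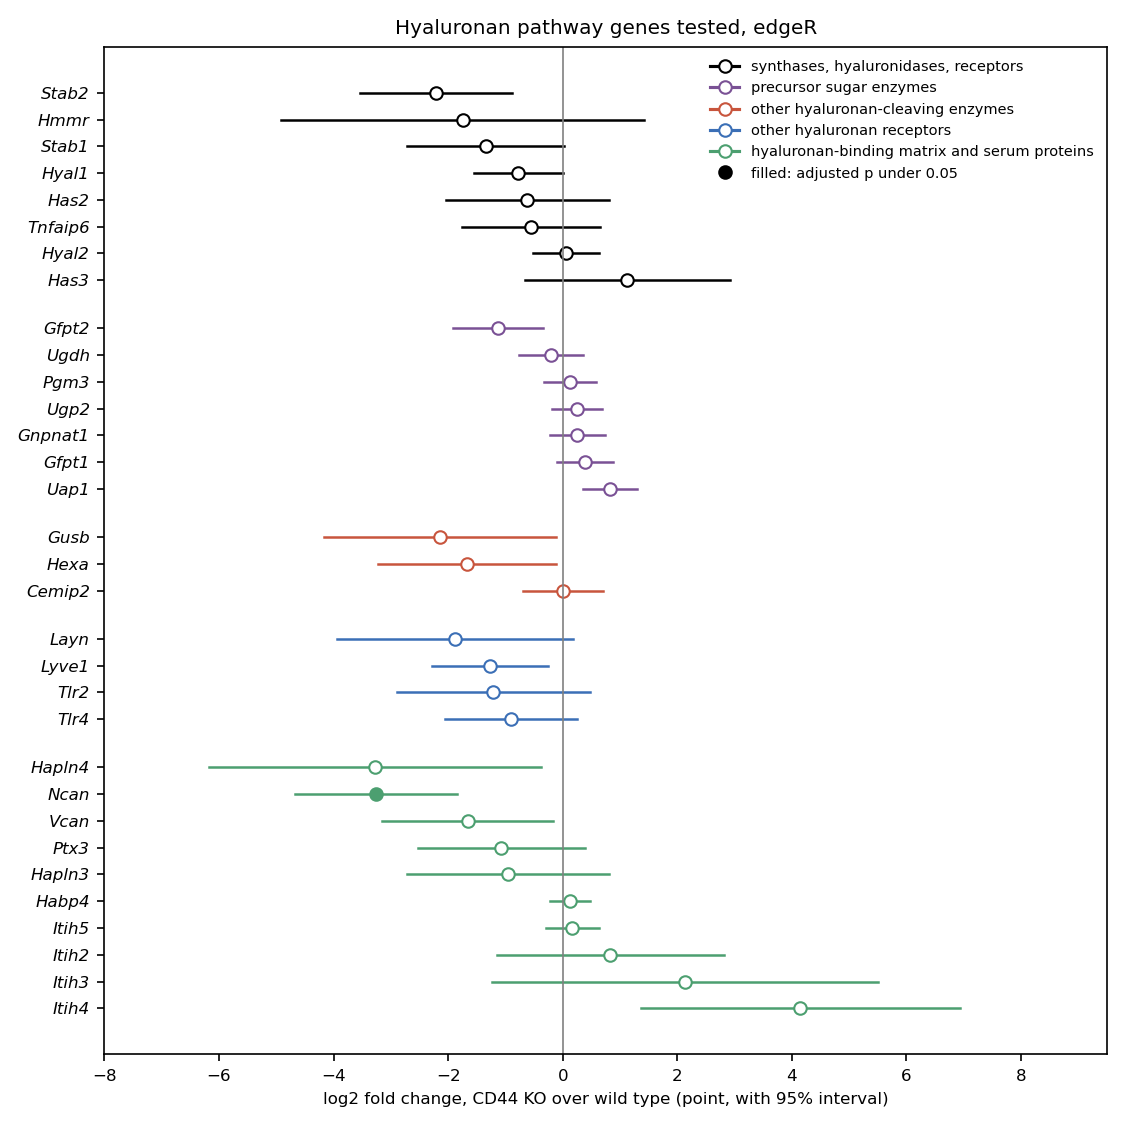
Log2 fold change of CD44 KO over wild type (x axis) with its 95% interval for the 8 tested hyaluronan genes and other tested genes of the pathway, by role; a filled point marks an edgeR adjusted p under 0.05. Ncan, at -3.26, is the filled point; Stab2, at -2.21, has an interval below 0.

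Stromal and mesothelial cells are known sources of hyaluronan, and their markers differed in sign. The 10 fibroblast and progenitor markers summed to 4931 to 6771 CPM in wild type libraries, against 998 to 2799 in CD44 KO, with 8 of 10 negative and 1, Pi16, called lower by edgeR. DESeq2 called 6 of them lower (10.6% of all tested genes), and edgeR 4 without CD44 KO replicate 1 (9.65%). Col3a1 stood at 2611 to 3864 CPM in wild type libraries, against 178 to 1141 in CD44 KO, and Dcn at 935 to 1181 and 447 to 971. The 8 mesothelial markers summed to 5.22 to 13.8 CPM in wild type libraries, against 49.1 to 474 in CD44 KO, all 8 positive with 1, Krt19, called higher by edgeR. DESeq2 called 7 of them higher (10.6% of all tested genes), and edgeR 4 without CD44 KO replicate 1 (7.13%). Krt19 had 20, 17 and 9 counts in wild type libraries, and Krt18 had 10, 17 and 1. Both, like others of these markers, passed the filter on low counts only with the CD44 KO libraries, where they were high. Such calls therefore say little. Krt18 and Krt8 reached 221 and 196 CPM in CD44 KO replicate 2, the library with epididymis transcripts. They stood at 12.8 and 15.2 CPM in CD44 KO replicate 1, and at 6.93 and 6.41 in replicate 3. The part of epididymis in the sum of that library was not tested. The part of stromal and mesothelial cells in the synthase values was not tested. The 7 neutrophil markers summed to 14.1 to 39 and 2.34 to 27.3 CPM, S100a8 and Csf3r being the most abundant.

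Genes with the profile most like each of these hyaluronan genes were found by the root mean square difference of log2 CPM, each gene centred on its mean over the 6 libraries. For Stab2 these were Cdca7l, P2ry14 and Pfkfb4, at 0.163, 0.171 and 0.181, and for Stab1 Rel, Timp2 and Fes, at 0.0841, 0.089 and 0.101. For Hmmr they were Brca1, Bub1 and Hrob, at 0.169, 0.178 and 0.252. Hyal1 was nearest to Lrrc20, Idua and Zgrf1, at 0.0549, 0.0581 and 0.065, Idua being a lysosomal enzyme of glycosaminoglycan breakdown. Armcx1 and Dtnbp1 were among the 3 genes nearest to Hyal2, and Tnfaip6 was nearest to Etv4, Atp8a1 and Mtf2. Has2 was nearest to Slc16a6, Cdc14b and Lima1, and Has3 to Ifitm10, Prr7 and Masp1. With 6 libraries such nearness is easily met. There were 46 genes within 0.5 of Hmmr and 297 of Stab2, against 4336 of Hyal1 and 7846 of Hyal2.

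**Figure D5:**
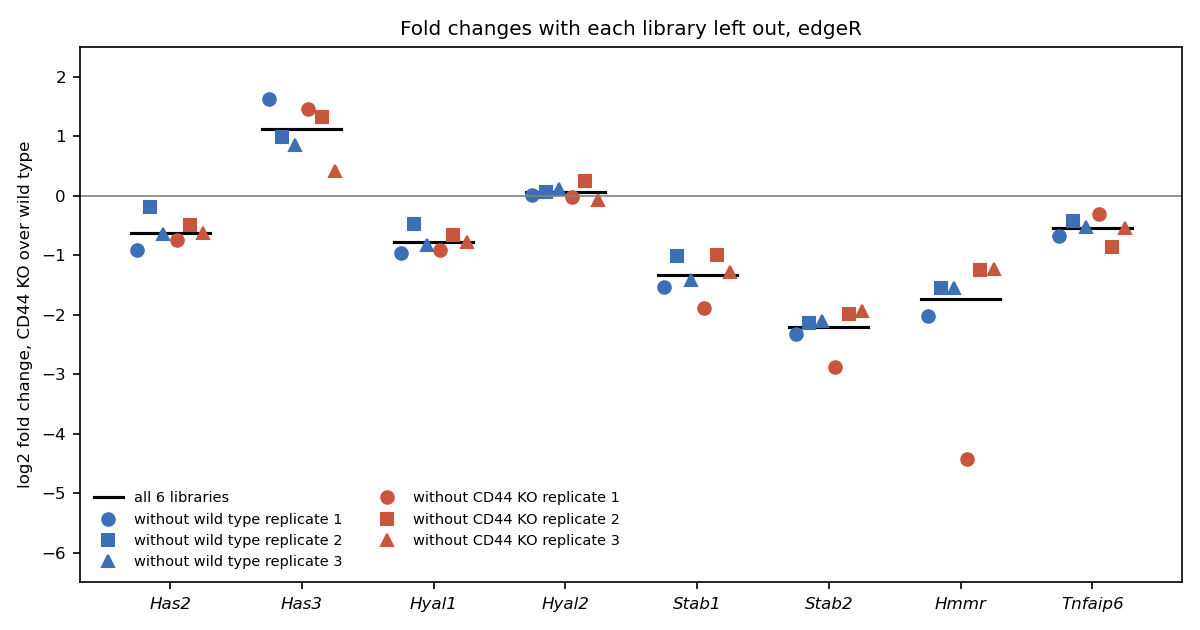
Log2 fold change (y axis) of the 8 tested hyaluronan genes with all 6 libraries (black line) and with each library left out in turn (symbols). Without CD44 KO replicate 1 Hmmr moves from -1.74 to -4.42 and Stab2 from -2.21 to -2.88, while Hyal2 stays between -0.07 and 0.25.

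Leaving out single libraries changed the size more than the direction of these differences. Over the 6 fits Stab1 ran from -1.88 to -1.0, Hmmr from -4.42 to -1.23, Hyal1 from -0.97 to -0.48, Tnfaip6 from -0.87 to -0.30, Has2 from -0.91 to -0.19 and Has3 from 0.41 to 1.62. Hyal2 alone of the 8 changed sign. Without CD44 KO replicate 2, the library with epididymis transcripts, Stab2 stood at -1.99, Stab1 at -1.0 and Hmmr at -1.25, and none was called.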

How the data were processed

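Messenger RNA was sequenced after oligo(dT) enrichment on a NovaSeq 6000 with the NEBNext Ultra kit, per the labels' protocols. HISAT2, StringTie 1.3.1, RSEM and DESeq2 are named in the submitters' processing notes without their roles. For build, annotation and strandedness: not given in the sources used here. The authors deposited expected counts (estimated, not scaled) and FPKM (scaled for length and library size) per gene. A second table that the authors deposited holds the rounded counts with a log2 fold change, p-value and FDR. Expected counts were rounded and tested here with edgeR 4.0.16 in R 4.3.3: filterByExpr (13829 genes kept), TMM, robust quasi-likelihood fit on genotype. CPM are TMM-normalised. SE is the log2 fold change over the square root of F, and intervals use 4 residual degrees of freedom. Alternatives were a replicate block, DESeq2 1.42.0, RLE scaling, 2 other filters, no robust estimation, limma 3.58.1 on log2(FPKM + 0.1), and each library left out. The fit was tested on simulated data.

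The 10 genes and all lists were chosen with earlier results of these data known. Named genes are the 10, Cd44, the called or lowest-p pathway genes, the 2 most abundant and any called marker of each list, and the 3 nearest profiles; others (Itih2, Itih3, Ambp, Derpc, Naa80, Krt8 and pathway genes given to complete a group) were named after their values were seen. Motifs were searched in RefSeq promoters, GRCm38.p6. Groups of 3 libraries per genotype come from the genotype label. Single genes that these rules also name are not reported here.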

Additional observations from a re-analysis of the deposited data

How the results depend on the processing

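Of 104 fold changes of the 8 tested genes under the alternatives, 97 kept their direction and stayed short of the threshold, 5 passed it and 2 changed sign. Hyal2 reversed to -0.02 without CD44 KO replicate 1 and to -0.07 without CD44 KO replicate 3. DESeq2 called Stab1 at -1.36 and Stab2 at -2.22. Without CD44 KO replicate 1 edgeR called Stab1 at -1.88, Stab2 at -2.88 and Hmmr at -4.42. With a library left out, Hyal2 ran from -0.07 to 0.25, Stab1 from -1.88 to -1.0, Stab2 from -2.88 to -1.93 and Hmmr from -4.42 to -1.23. The cause of these differences between settings was not tested. Hyaluronan genes called lower numbered 2 by DESeq2 and 0 to 3 with a library left out, against 0. Pathway genes called lower numbered 8 by DESeq2 and 0 to 7 with a library left out, against 1; called higher they numbered 2 by DESeq2 and 0 to 2 with a library left out, against 0. One of those 2, Ambp, passed the filter only through the 2 CD44 KO libraries where it is high, so its call there says nothing. The other in the fit without CD44 KO replicate 1, Itih4, also passed only with CD44 KO libraries, so its call says little.

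Over all genes 122 were called lower and 240 higher. These counts were 1463 and 1463 by DESeq2, ran from 0 to 1363 and 0 to 1007 with a library left out, and were 206 lower by limma on FPKM and 145 higher without the filter. With the replicate number as a block 0 hyaluronan genes, 0 pathway genes and 0 and 0 of all genes were called lower and higher. Deviations of same-numbered libraries from their genotype means correlated at -0.321, -0.218 and -0.0176 across genes. Those of differently numbered libraries ran from -0.177 to 0.287. With 3 libraries per genotype these values are bound to each other and cannot show whether the numbers pair the libraries. Shares taken from CPM, with no length correction, put Hyal2 at 64.1% in wild type and 74.9% in CD44 KO, and Stab1 at 94.6% and 97%. By CPM the stabilin shares of the genotypes overlapped. A count of 0 allows 0.16 to 0.193 CPM by library; of the 10 genes Cemip had such a count, in CD44 KO replicate 3.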
